A study of Mus musculus with 15 samples.

Results

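Gja4, Gja5, Gkn3 and Bmx, 4 genes known as markers of arterial endothelium, were followed through retinal endothelial cells of mice that lack Norrin, its receptor Frizzled4 or its coreceptor Lrp5. All probe sets that carry 1 of these 4 symbols were taken, which gave 5 of the 45101 probe sets and 4 of the 18194 measured genes. The genes had been chosen with their values on these arrays known, so their levels are given below as a description without a test. Endothelial cells were purified from adult retina with beads that carry an antibody to PECAM, and total RNA was hybridised to 1-colour arrays. The groups were Fz4-/- (3 arrays), Lrp5-/- (3 arrays), Norrin- (3 arrays) and wild type (6 arrays), all of C57Bl6/129 mixed background. The labels name no age beyond adult, no inducible allele and no treatment. Animals were pooled, 5 to 10 for each array, so errors and p-values below describe how pools vary. All 3 mutants were compared with the same 6 wild-type arrays.

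Gja4 and Gja5 encode the gap junction proteins Cx37 and Cx40, which couple neighbouring endothelial cells and are most abundant in arteries. Bmx encodes a non-receptor tyrosine kinase of the Tec family that is used as a marker of arterial endothelium. Gkn3 encodes a secreted protein of the gastrokine family, known in the mouse from stomach and from brain arterial endothelium. Norrin binds Frizzled4 together with Lrp5 on retinal endothelium and activates beta-catenin signalling, which is needed for the vessels of the deep retina and for the blood-retina barrier. Arterial identity is otherwise set largely by Notch signalling and blood flow.

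The 4 genes lay on 4 chromosomes. In the GRCm38.p6 assembly Gja5 spans chr3:97032402-97053634, Gja4 chr4:127311420-127314039, Gkn3 chr6:87383319-87388935 and Bmx chrX:164192842-164258193. Their promoters, 250 bases before to 50 bases after the annotated gene start, were read from the RefSeq table of that assembly and are shown because genes that moved together and genes that moved apart could share letters there. All 4 genes had an entry. The capitals mark the longest stretch that Gja4 and Gja5 share and, in Bmx, the core of the motif bound by the Notch effector RBPJ.
Gja4: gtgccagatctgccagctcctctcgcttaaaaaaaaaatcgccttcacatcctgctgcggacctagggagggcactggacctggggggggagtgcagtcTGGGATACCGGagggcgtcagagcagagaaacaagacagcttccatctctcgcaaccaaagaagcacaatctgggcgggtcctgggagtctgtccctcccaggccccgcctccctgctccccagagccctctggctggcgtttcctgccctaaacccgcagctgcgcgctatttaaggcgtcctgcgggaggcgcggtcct
Gja5: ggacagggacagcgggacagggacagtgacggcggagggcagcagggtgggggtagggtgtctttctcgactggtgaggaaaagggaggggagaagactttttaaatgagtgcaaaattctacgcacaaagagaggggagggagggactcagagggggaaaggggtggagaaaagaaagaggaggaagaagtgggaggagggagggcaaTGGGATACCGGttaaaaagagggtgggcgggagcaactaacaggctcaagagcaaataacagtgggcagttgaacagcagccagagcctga
Gkn3: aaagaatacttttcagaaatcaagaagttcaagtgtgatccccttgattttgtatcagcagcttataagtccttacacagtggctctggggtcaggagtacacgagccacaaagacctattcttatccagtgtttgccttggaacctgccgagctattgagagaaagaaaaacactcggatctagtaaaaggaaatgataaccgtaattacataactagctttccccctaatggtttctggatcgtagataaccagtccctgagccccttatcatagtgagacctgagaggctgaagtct
Bmx: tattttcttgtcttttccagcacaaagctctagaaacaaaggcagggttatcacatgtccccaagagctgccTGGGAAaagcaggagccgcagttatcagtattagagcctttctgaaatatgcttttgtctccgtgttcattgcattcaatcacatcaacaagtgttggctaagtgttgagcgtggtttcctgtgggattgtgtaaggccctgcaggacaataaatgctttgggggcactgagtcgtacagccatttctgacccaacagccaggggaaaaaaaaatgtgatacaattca
The Gja4 window is chr4:127313990-127314289 on the minus strand, that of Gja5 chr3:97032152-97032451 on the plus strand, that of Gkn3 chr6:87388886-87389185 on the minus strand and that of Bmx chrX:164258144-164258443 on the minus strand. The G and C content was 62.0% in Gja4 and 55.7% in Gja5, but 42.7% in Gkn3 and 44.7% in Bmx, around a median of 52.7% over 32851 promoters. The RBPJ core TGGGAA, searched on both strands, occurred only in Bmx among the 4, from base -178 to base -173, and 25.56% of all promoters hold it. The form CTTTGA of the TCF/LEF core, searched likewise, occurred in none of the 4 windows, and 16.0% of all promoters hold it. Other forms of that core were not searched, so the absence of a TCF/LEF site is not shown. Gja4 and Gja5 shared the 11 bases TGGGATACCGG in the same orientation, starting at base -151 in Gja4 and base -41 in Gja5. This stretch occurs in 4 promoters (0.0122%), of which the others are those of Dao and Vps4a. It was found by searching these sequences for their longest common stretch and was given no test; the other 5 pairs among the 4 genes shared stretches of 8 to 10 bases.

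The mean correlation of an array with the others of its group was between 0.963 and 0.988, lowest for wild type 4. The gap between 3′ and 5′ actin control signals, which grows as RNA degrades, was 1.049 to 2.92 in Norrin- arrays and 0.558 to 1.043 in the others, and the array at 2.92 was Norrin- 1. Lrp5-/- 1, Lrp5-/- 3 and wild type 4 were left out together in an alternative fit, which kept only 1 Lrp5-/- array. Their mean correlations were 0.969, 0.981 and 0.963. That of Lrp5-/- 3 was the highest of its group, and that of Norrin- 1, which was kept, was 0.966. Fzd4, which encodes Frizzled4, was at 3.98 to 4.56 in Fz4-/- arrays and at 11.80 to 12.27 in wild type, and Lrp5 was at 4.40 to 5.25 in Lrp5-/- arrays and at 7.22 to 7.95 in wild type. Ndp, which encodes Norrin, was near background in every group (3.88 to 4.35 in Norrin-, 4.28 to 4.81 in wild type), so it did not check the Norrin- label.

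The connexin Gja4 was higher in all 3 mutants. Its log2 signals (probe set 1416255_at) were 11.04, 10.74 and 10.74 in Fz4-/-, 10.48, 10.85 and 10.56 in Lrp5-/- and 10.85, 10.65 and 10.78 in Norrin- arrays. In wild type the lowest was 9.47, the median 9.94 and the highest 10.15. Every mutant array was above every wild-type array, and the ranges of the 3 mutants overlapped each other. The difference from wild type was 0.95 ± 0.16 on the log2 scale in Fz4-/-, 0.74 ± 0.16 in Lrp5-/- and 0.87 ± 0.16 in Norrin- (difference ± SE from the fit of all arrays), or 1.93-, 1.67- and 1.83-fold. Across all genes 4.76% had every mutant array above every wild-type array, a share from which nothing is read here because Gja4 was selected on this contrast.

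Gja5, a connexin typical of larger arteries, split the mutants. Its signals (1422192_at) were 6.86, 5.82 and 6.24 in Fz4-/- and 5.70, 5.94 and 5.50 in Norrin- arrays, but 4.37, 4.54 and 4.48 in Lrp5-/- arrays. The wild-type arrays ran from 4.06 through a median of 4.19 to 4.62. The Fz4-/- and Norrin- arrays thus lay above all 6 wild-type arrays, while the Lrp5-/- arrays lay inside their range. Gja5 was 2.03 ± 0.20 higher in Fz4-/- and 1.44 ± 0.20 higher in Norrin- than in wild type (4.10- and 2.71-fold), against 0.19 ± 0.20 in Lrp5-/-. Fz4-/- exceeded Lrp5-/- by 1.85 ± 0.24 and Norrin- exceeded Lrp5-/- by 1.25 ± 0.24, with no overlap of arrays in either pair. The Fz4-/- and Norrin- ranges did overlap (difference 0.60 ± 0.24). The levels in wild type and Lrp5-/- lay below the array medians, which were 5.885 to 6.038, so a fold there understates the change if part of the signal is background. Across all genes 0.225% passed the test between Fz4-/- and Lrp5-/-, 11.9% between Norrin- and Lrp5-/- and 2.32% between Fz4-/- and Norrin- (limma, Benjamini-Hochberg adjusted p under 0.05), and nothing is read from these shares for Gja5, which was selected on these groups.

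Gkn3 had the largest difference of the 4 genes. Its brighter probe set (1429286_at) was at 8.13, 8.49 and 8.07 in Fz4-/-, at 6.09, 8.43 and 7.95 in Lrp5-/- and at 6.62, 7.38 and 7.44 in Norrin- arrays. The wild-type arrays had 10.82 at the lowest, 11.41 at the median and 11.61 at the highest. No mutant array came within 2 log2 units of the lowest wild-type array. The differences from wild type were -3.09 ± 0.39 in Fz4-/-, -3.83 ± 0.39 in Lrp5-/- and -4.17 ± 0.39 in Norrin-, which is 8.51-, 14.2- and 18.0-fold lower. The lowest single value was that of Lrp5-/- 1, and without this array the Lrp5-/- difference was -3.13; without Lrp5-/- 1, Lrp5-/- 3 and wild type 4 it was -2.99.

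The second probe set of Gkn3 (1438648_x_at) was dimmer and showed the same separation. It was at 6.05, 6.44 and 6.22 in Fz4-/-, 4.63, 6.46 and 5.89 in Lrp5-/- and 5.81, 5.89 and 6.05 in Norrin- arrays, against a lowest value of 8.0, a median of 9.42 and a highest value of 9.57 in wild type. Its differences were -2.91 in Fz4-/-, -3.48 in Lrp5-/- and -3.23 in Norrin- (SE 0.37 each). The order of the mutants was not the same on both probe sets, with Norrin- lowest on the brighter one and Lrp5-/- lowest on the dimmer one. On the brighter one the Fz4-/- and Norrin- arrays did not overlap (difference 1.08 ± 0.45), but on the dimmer one they met at 6.05. Over all genes, 3.53% had every mutant array below every wild-type array.

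Bmx was lower in every mutant, with a single point of overlap. Its signals (1422084_at) were 7.33, 7.68 and 8.24 in Fz4-/-, 7.52, 8.53 and 8.15 in Lrp5-/- and 8.01, 7.84 and 7.91 in Norrin- arrays. Wild type ran from 8.52 through a median of 9.44 to 9.92. The overlap came from Lrp5-/- 2 at 8.53 and wild type 4 at 8.52, and the other 8 mutant arrays lay below all wild-type arrays. The differences were -1.60 ± 0.29 in Fz4-/-, -1.29 ± 0.29 in Lrp5-/- and -1.43 ± 0.29 in Norrin-, or 3.04-, 2.44- and 2.70-fold lower, and the 3 mutants did not differ from each other beyond their spread (-0.31 for Fz4-/- minus Lrp5-/-, -0.17 for Fz4-/- minus Norrin- and -0.15 for Norrin- minus Lrp5-/-, SE 0.33 each). In these bulk pools, fewer cells of a type and less RNA per cell cannot be told apart.

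**Figure D1:**
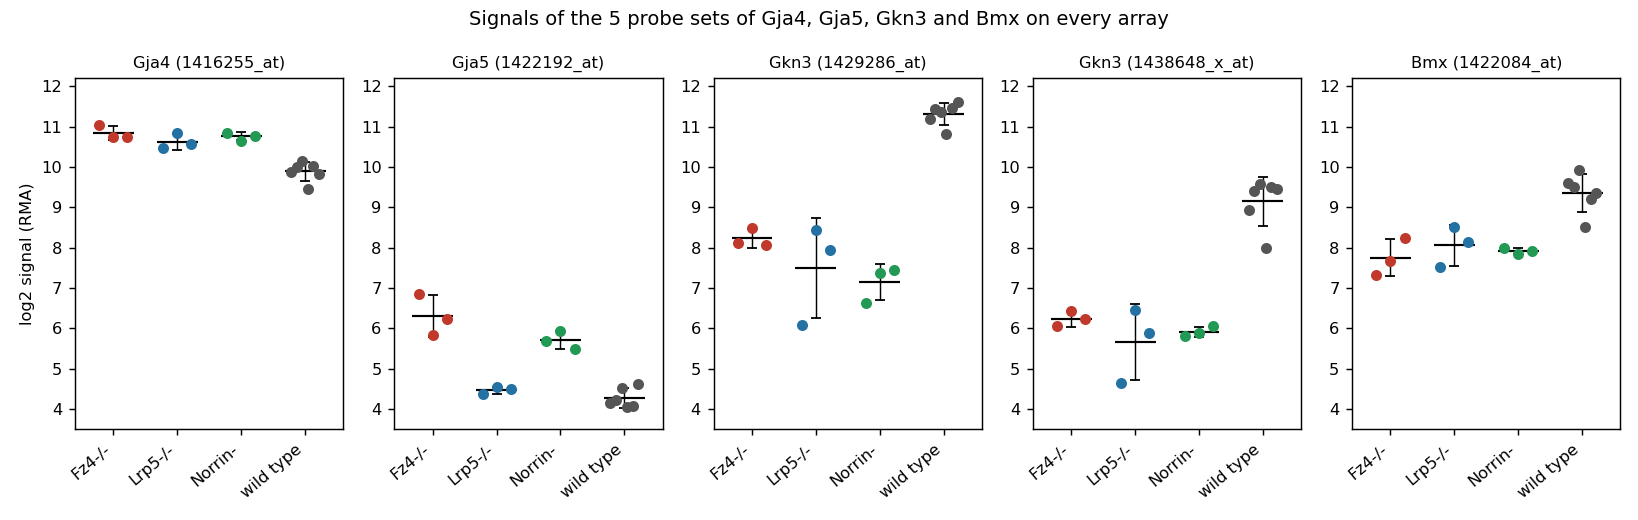
Log2 signal (vertical axis) of each array for the 5 probe sets, by group (horizontal axis). Points are arrays, long bars group means and whiskers 1 SD (n = 3 for each mutant, n = 6 for wild type). Gja4 is higher in all 9 mutant arrays, Gja5 is higher in Fz4-/- and Norrin- but not in Lrp5-/-, and both Gkn3 probe sets and Bmx are lower in mutants.

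The 4 genes therefore followed 3 courses over the groups. The connexin pair was higher and the pair of Gkn3 and Bmx lower, and within the first pair the genes parted in Lrp5-/-. With each gene set relative to its own wild-type mean, Gja4 and Gja5 differed by a root mean square of 0.65 log2 units over the 15 arrays, and Gkn3 and Bmx by 1.85. By this measure Bmx was about as far from Gja4 (1.81) as from Gkn3, so Gkn3 and Bmx shared a direction but not a size. Wild type 4 was the lowest wild-type array for all 4 genes, on the brighter probe set of Gkn3 and on the dimmer one.

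The genes whose course over the 15 arrays came closest to that of each of the 4, by the same measure, were found across all 18194 genes. Since likeness chose them, their differences are given here without a test. Fbln2 is tested below only as a gene of the arterial list. Closest to Gja4 were Prdx4, a peroxiredoxin of the endoplasmic reticulum, at 0.0944 log2 units, Ccnyl1 at 0.135 and the collagen receptor Ddr2 at 0.142. Closest to Gja5 were Serpinf1, which encodes the secreted protein PEDF, at 0.357, the matrix protein Fbln2 at 0.397 and Gipc2 at 0.409. Serpinf1 had the split of Gja5: it differed from wild type by 1.82 in Fz4-/- and 1.52 in Norrin-, but by -0.05 in Lrp5-/-. Its signals were 10.97, 10.12 and 10.91 in Fz4-/-, 10.36, 10.29 and 10.42 in Norrin- and 8.22, 8.99 and 9.17 in Lrp5-/- arrays, beside 8.29 to 9.26 in wild type. Closest to Gkn3 were the lipocalin Apod at 0.571, the TNF receptor family member Tnfrsf19 at 0.596 and the membrane protein Pllp at 0.609. Closest to Bmx were Sntg2 at 0.269, Insc at 0.285 and Pir at 0.300.

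**Figure D2:**
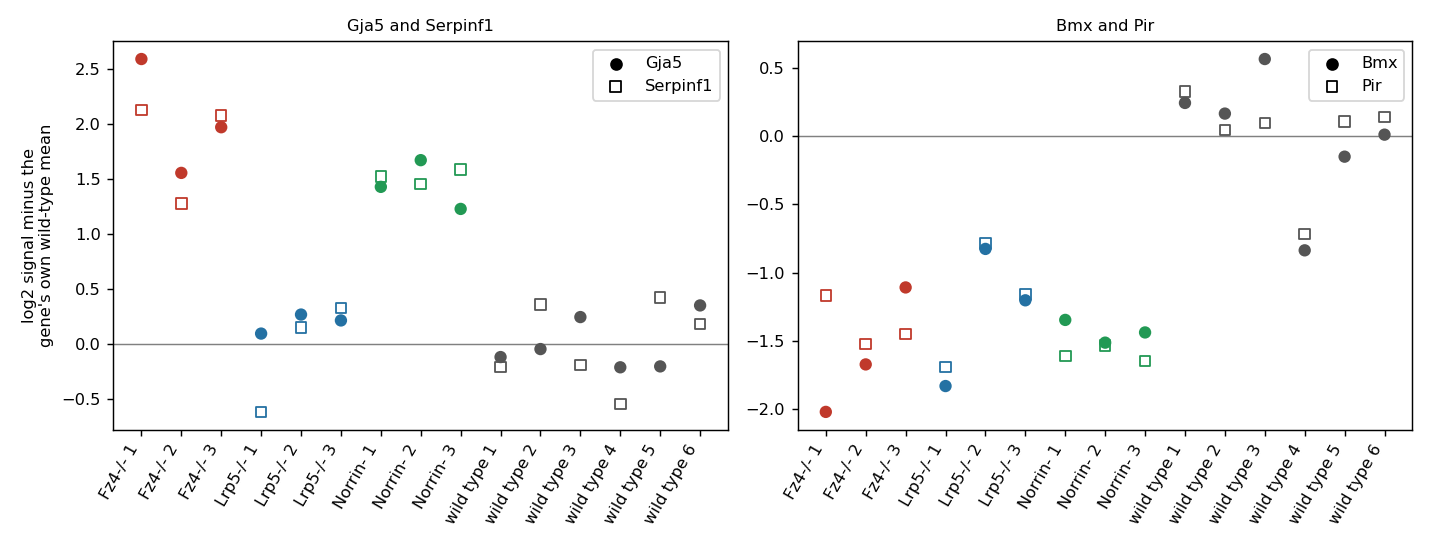
Log2 signal minus the gene's own wild-type mean (vertical axis) on each of the 15 arrays (horizontal axis, coloured by group), for Gja5 (filled circles) with Serpinf1 (open squares) on the left and Bmx (filled circles) with Pir (open squares) on the right. Serpinf1 and Gja5 are both high in Fz4-/- and Norrin- and near 0 in Lrp5-/-, and Pir and Bmx are both low in every mutant and lowest among wild-type arrays in wild type 4.

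Pir, which encodes the iron-binding nuclear protein pirin, is also the gene next to Bmx on the X chromosome, 11.24 kb away. Its signals were 9.07, 8.72 and 8.79 in Fz4-/-, 8.55, 9.45 and 9.08 in Lrp5-/- and 8.63, 8.71 and 8.59 in Norrin- arrays, against a lowest value of 9.52 and a highest of 10.57 in wild type. All 9 mutant arrays lay below all wild-type arrays. The log2 difference of Pir was -1.38 in Fz4-/-, -1.21 in Lrp5-/- and -1.60 in Norrin-, each with an SE of 0.22. Because likeness to Bmx had also picked it out, these values are given without a test.

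The 3 measured genes on each side of the 4 genes were then read in the same fit. Pir was not counted, since likeness to Bmx had picked it. Of the other neighbours of Bmx, Vegfd was lower and Car5b higher over the mean of the 3 mutants, and both passed the test. None of the 6 neighbours of Gja4, of Gja5 or of Gkn3 passed in that contrast. Across all genes 14.0% were higher and 9.91% lower in that contrast. Beside Pir, the lymphatic growth factor gene Vegfd, 115.33 kb from Bmx, had a log2 difference of -0.98 ± 0.24 over the mean of the mutants (adjusted p 0.00777). Vegfd fell by 1.41 in Norrin- (adjusted p 0.00537); the Fz4-/- difference of -0.99 had an adjusted p of 0.0491, which rose to 0.0503 to 0.183 when any 1 of 13 arrays was left out and was 0.05 with the array sets as a block, and the Lrp5-/- difference was -0.54 (adjusted p 0.342). Its 2 other probe sets were also lower over the mean of the mutants, with differences of -0.83 and -1.37. Car5b, a mitochondrial carbonic anhydrase gene on the other side of Bmx, rose by 0.76 ± 0.18 over the mean of the mutants (adjusted p 0.0053). This call was lost with the replicate number as a block (adjusted p 0.0768). Of the single mutants Car5b passed in Norrin- only (1.09, adjusted p 0.00377), as did Ap1s2 (0.60, adjusted p 0.0104) and Piga (0.80, adjusted p 0.0302). The neighbours of Bmx thus moved in both directions. Gkn1 and Gkn2, the gastrokine genes beside Gkn3, were dim (at most 4.44 and 3.43 on any array) and neither passed the test in any comparison (adjusted p 0.0709 for Gkn2 and 0.257 for Gkn1 over the mean of the mutants).

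**Figure D3:**
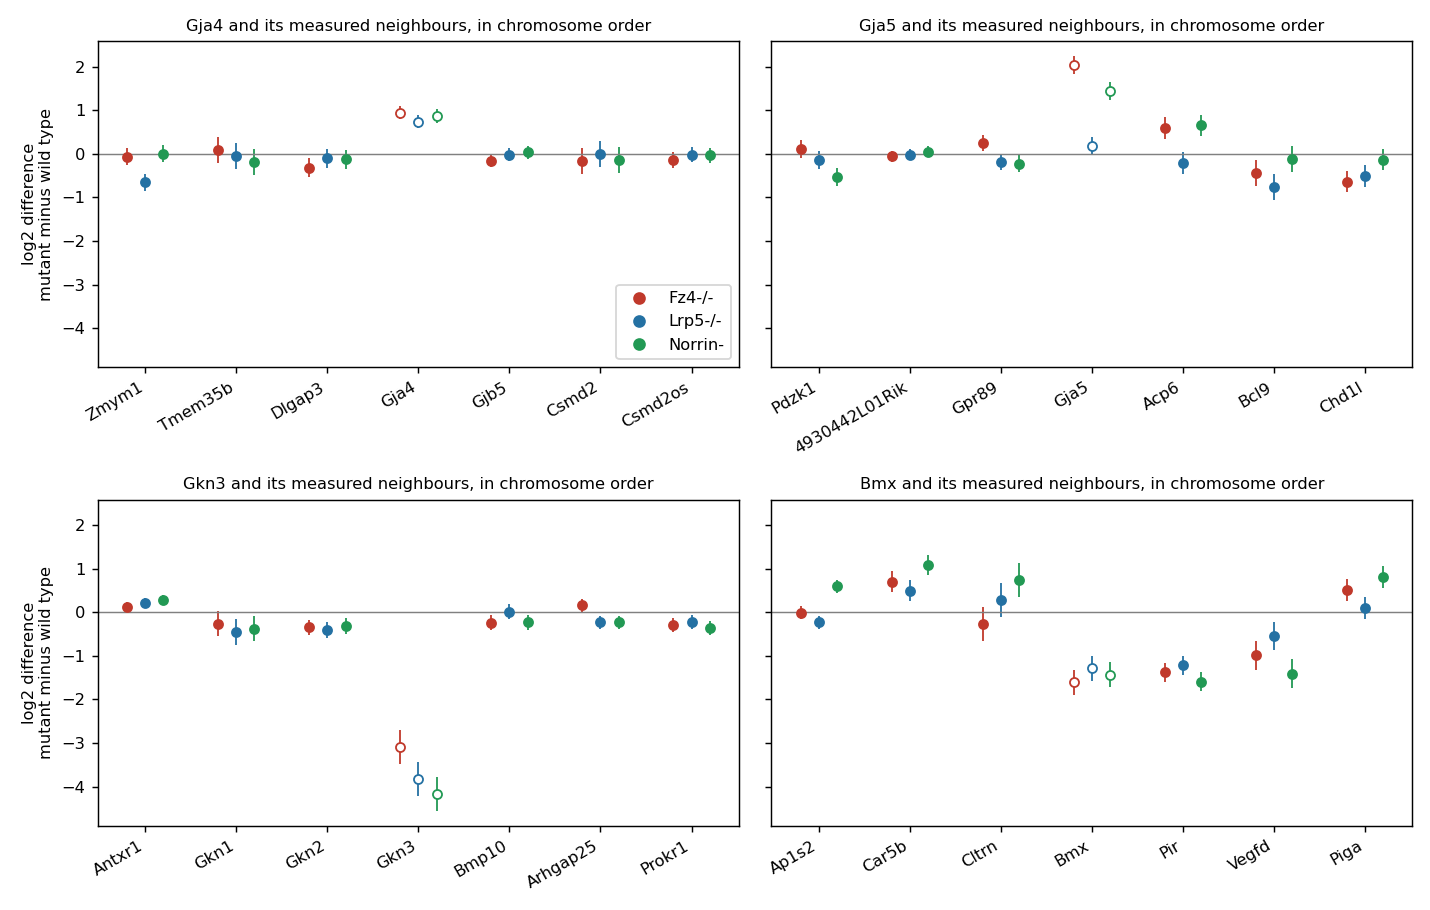
Log2 difference between each mutant and wild type (vertical axis, bars 1 SE) for Gja4, Gja5, Gkn3 and Bmx (open points) and the 3 measured genes on each side of each (filled points), in chromosome order (horizontal axis, not to scale). Pir and Vegfd, next to Bmx, are lower than in wild type, and no neighbour of Gkn3 differs by as much as 1 log2 unit.

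Bmx and its neighbours named above are X-linked, and the arrays differed in the sex of the mice pooled. Xist, the RNA of the inactive X chromosome of females, was at 11.42, 11.75 and 11.88 in Fz4-/-, 5.90, 4.76 and 12.21 in Lrp5-/-, 4.98, 4.12 and 4.45 in Norrin-, and 11.84, 11.32, 11.86, 5.99, 4.88 and 12.27 in wild type 1 to 6. The Y-linked gene Eif2s3y was at 9.57, 9.63 and 3.25 in Fz4-/-, 10.11, 10.48 and 3.21 in Lrp5-/-, 9.77, 10.32 and 10.28 in Norrin-, and 9.41, 9.78, 2.69, 10.29, 10.22 and 2.81 in wild type. Not every array thus carried RNA of both sexes, although the labels give mixed gender. Fz4-/- 1 to 3 matched wild type 1 to 3 in both genes, and Lrp5-/- 1 to 3 matched wild type 4 to 6. Within these matched pairs Bmx differed by -2.27, -1.84 and -1.68 in Fz4-/- and by -0.995, -0.68 and -1.22 in Lrp5-/-, so it was lower in 6 of 6. The Norrin- arrays all had low Xist and high Eif2s3y, as did wild type 4 and 5. Bmx in Norrin- arrays, at 7.84 to 8.01, was below both of these wild-type arrays (8.52 and 9.20). Vegfd in Norrin- arrays, at 5.78, 6.03 and 6.61, overlapped wild type 4 and 5 (6.47 and 7.30). Vegfd was highest among wild-type arrays in wild type 3 and 6 (8.205 and 8.229), which had low Eif2s3y. The part of the sex of the mice in the Norrin- levels of Bmx and its neighbours was not tested.

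Other genes that mark or build arterial endothelium moved in both directions too. Of 28 such genes, all measured, 10 rose and 8 fell over the mean of the mutants and 10 did not pass the test. Across all genes 14.0% rose and 9.91% fell in that contrast. Their median difference was 0.04 on the log2 scale, beside -0.01 over all genes. In Fz4-/- 8 rose and 6 fell (10.7% and 6.08% of all genes), in Lrp5-/- 5 rose and 7 fell (5.63% and 7.27%), and in Norrin- 9 rose and 7 fell (16.7% and 9.13%). The list medians in these comparisons were 0.09, -0.12 and 0.14, beside -0.03, -0.02 and 0.04 over all genes. The Lrp5-/- balance depended on the arrays used: 7 rose and 2 fell against wild type 4 to 6 only, 7 rose and 4 fell when these were also paired by array set, and 6 rose and 2 fell without Lrp5-/- 3. The Lrp5-/- count of 12 was 7 without Lrp5-/- 1 and 3 without Lrp5-/- 1, Lrp5-/- 3 and wild type 4. The list had been drawn up with earlier results of these data known.

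The 10 arterial genes that rose included Efnb2, Dll4 and Cxcr4. Efnb2, the ephrin ligand that defines arterial cells, was at 12.15 to 12.34 in Fz4-/-, 12.04 to 12.18 in Lrp5-/- and 12.01 to 12.35 in Norrin-, against 11.14 to 11.66 in wild type, and rose by 0.69 ± 0.10 over the mean of the mutants (adjusted p 0.000186). The Notch ligand Dll4 rose by 0.79 ± 0.17 (adjusted p 0.00365). Notch1 rose by 0.41 (adjusted p 0.00593), a call that was lost on the mean of its probe sets (adjusted p 0.123). Notch4 rose by 0.50 (adjusted p 0.0302), a call that was lost when any 1 of 6 arrays was left out (adjusted p 0.0511 to 0.0755: Fz4-/- 1 or 3, Lrp5-/- 2, or wild type 2, 5 or 6). Of the single mutants, Notch1 (0.68, adjusted p 0.0016) and Notch4 (1.00, adjusted p 0.00297) passed in Norrin- only. Notch4 differed by 0.02 in Lrp5-/- (adjusted p 0.976). The Notch target genes Hey1 (-0.16, adjusted p 0.288) and Hey2 (-0.18, adjusted p 0.419) and the ligands Jag1 (-0.01, adjusted p 0.919) and Jag2 (-0.20, adjusted p 0.361) did not pass. The chemokine receptor Cxcr4 was at 12.37 to 12.68 in Fz4-/-, 12.28 to 12.72 in Lrp5-/- and 11.71 to 12.16 in Norrin-, against 10.44 to 11.23 in wild type, and rose by 1.49 ± 0.14 (adjusted p 1.88e-06). Unc5b, a netrin receptor, rose by 1.21 (adjusted p 0.000108), the VEGF coreceptor Nrp1 by 0.65 (adjusted p 3.99e-05), Igfbp3 by 1.04 (adjusted p 9.28e-06), Fbln2 by 1.38 (adjusted p 0.000148) and the secreted chaperone Clu by 0.54 (adjusted p 0.00575).

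The 8 arterial genes that fell were Depp1, Edn1, Acvrl1, Cxcl12, Ltbp4, Eln, Sox17 and Epas1. Depp1 was at 9.46 to 10.18 in Fz4-/-, 8.86 to 9.47 in Lrp5-/- and 9.75 to 10.50 in Norrin-, against 10.84 to 11.84 in wild type, and fell by 1.84 on the log2 scale over the mean of the mutants (adjusted p 4.2e-06). Edn1, the vasoconstrictor endothelin, was at 11.25 to 11.62 in Fz4-/-, 11.32 to 11.74 in Lrp5-/- and 9.68 to 11.14 in Norrin-, against 12.04 to 12.43 in wild type, and fell by 1.18 (adjusted p 0.000154). The BMP receptor Acvrl1 fell by 0.94 (adjusted p 0.000109) and Cxcl12, the ligand of Cxcr4, by 0.88 (adjusted p 0.000127). The matrix genes Ltbp4 and Eln (elastin) fell by 0.66 (adjusted p 0.00664) and 0.59 (adjusted p 0.0133). Without Lrp5-/- 1, Lrp5-/- 3 and wild type 4 their differences were -0.51 and -0.55. Elastin differed by -0.94 in Fz4-/- and -0.96 in Lrp5-/-, but by 0.13 in Norrin- (adjusted p 0.684), so Norrin- did not share its fall. The elastin call over the mean was lost with the replicate number as a block (adjusted p 0.26). The transcription factor Sox17 fell by 0.38 (adjusted p 0.0104) and Epas1 by 0.22 (adjusted p 0.0392), the second of which was lost when any 1 of 10 arrays was left out (adjusted p 0.0511 to 0.0914) and on the mean of its probe sets (adjusted p 0.548). Vegfc, Sema3g, Mgp, Fbln5, Stmn2 and Tm4sf1 did not pass, with adjusted p between 0.0846 and 0.795. Of the 28 genes, 5 had every mutant array above wild type (Efnb2, Nrp1, Cxcr4, Igfbp3 and Mgp) and 3 had every mutant array below it (Edn1, Epas1 and Depp1), beside 4.76% and 3.53% of all genes.

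**Figure D4:**
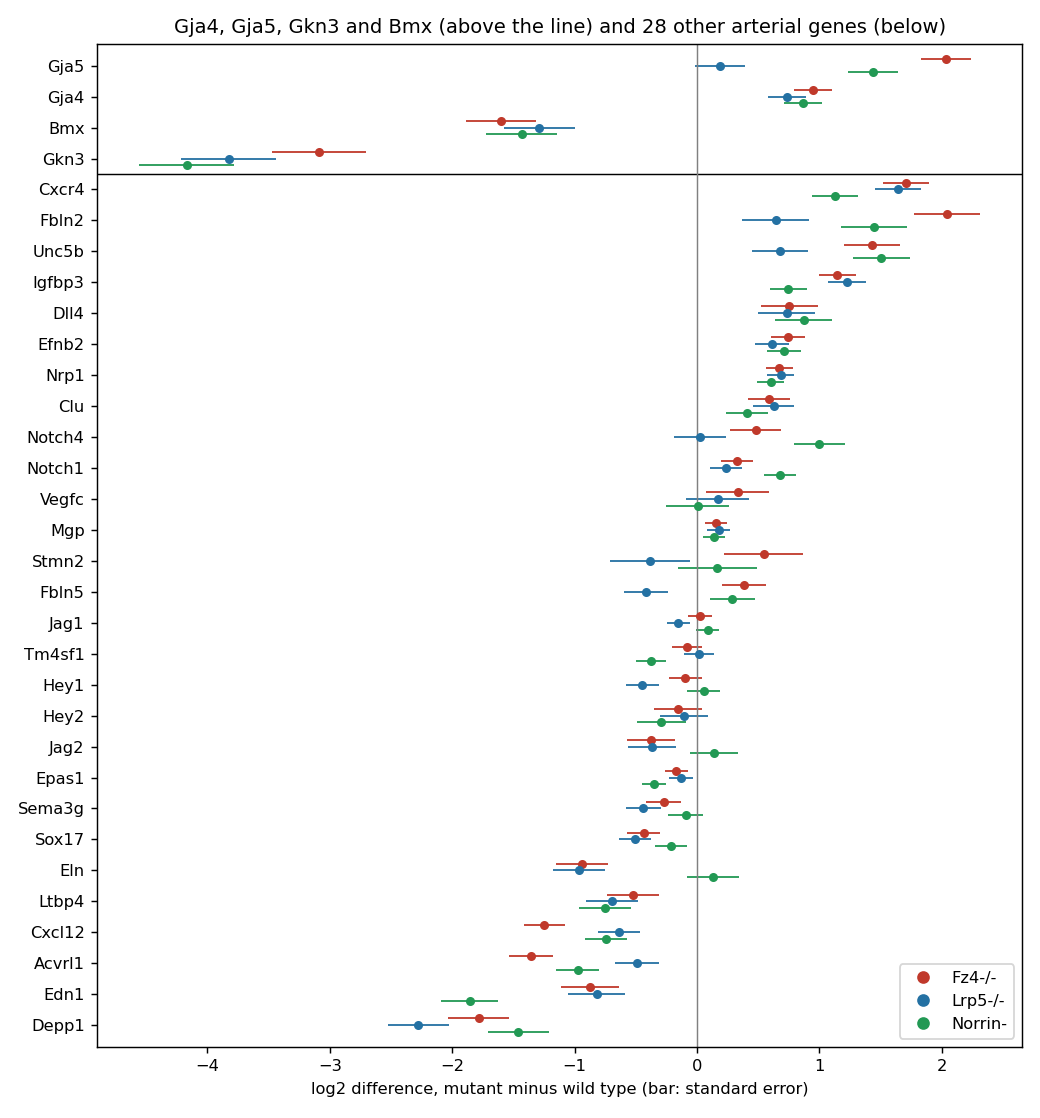
Log2 difference between each mutant and wild type (horizontal axis, bars 1 SE) for Gja4, Gja5, Gkn3 and Bmx above the line and 28 other arterial genes below it, sorted by the mean over the mutants. Of the 28 genes 10 rose and 8 fell over the mean of the mutants (14.0% and 9.91% of all genes), and Gkn3 has a larger difference than any of them in each mutant.

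The split of Gja5 was looked for in the rest of the arterial list. None of the 28 genes passed the test between Fz4-/- and Lrp5-/-, which 0.225% of all genes passed. Fbln2, which likeness to Gja5 had also picked, had the largest difference there, 1.40 ± 0.31 with an adjusted p of 0.131. Between Norrin- and Lrp5-/-, where 11.9% of all genes passed, 3 of the 28 were higher in Norrin- and 1 was lower, a share near that of all genes. Elastin by 1.09 (adjusted p 0.0133), Notch4 by 0.98 (adjusted p 0.0214) and Fbln5 by 0.70 (adjusted p 0.0437) were higher, and Edn1 was lower with a difference of -1.04 (adjusted p 0.0261). Between Fz4-/- and Norrin-, where 2.32% of all genes passed, elastin alone of the 28 did, with a difference of -1.07 (adjusted p 0.0382). These 5 calls rested on single arrays. The elastin call between Norrin- and Lrp5-/- was lost without Lrp5-/- 3 (adjusted p 0.05), those of Notch4 (0.0547 to 0.0842) and Edn1 (0.0573 to 0.0955) without Lrp5-/- 1, Lrp5-/- 3, Norrin- 1 or Norrin- 3, that of Fbln5 without any 1 of 8 arrays (0.053 to 0.149) and that of elastin between Fz4-/- and Norrin- without any 1 of 7 (0.0529 to 0.145).

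Genes that respond to blood flow were mixed. Of 6 measured, 1 rose and 3 fell over the mean of the mutants, beside 14.0% and 9.91% of all genes. The flow-induced transcription factor Klf2 was at 10.98 to 11.09 in Fz4-/-, 10.66 to 11.08 in Lrp5-/- and 10.31 to 11.13 in Norrin-, against 11.62 to 12.15 in wild type, and fell by 0.97 (adjusted p 0.000115). Nos3, the endothelial nitric oxide synthase, fell by 0.81 (adjusted p 0.000187) and Klf4 by 0.29 (adjusted p 0.0151; 0.0711 without Lrp5-/- 1, Lrp5-/- 3 and wild type 4). Plpp3, a lipid phosphatase, rose by 2.05 ± 0.13 (adjusted p 3e-08).

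Venous genes also went both ways, with 5 of 12 higher and 3 lower over the mean of the mutants, beside 14.0% and 9.91% of all genes. The adhesion molecule Selp was at 11.56 to 12.49 in Fz4-/-, 12.66 to 12.87 in Lrp5-/- and 11.41 to 12.01 in Norrin-, against 5.49 to 8.24 in wild type, and rose by 5.01 ± 0.38 (adjusted p 2.28e-07). The chemokine receptor Ackr1 rose by 3.03 (adjusted p 1.07e-06) and Nrp2 by 0.92 (adjusted p 2.46e-06), while Tmem252 fell by 1.15 (adjusted p 0.000595). The venous count of 8 was 5 when Norrin- 3 or wild type 2, 3 or 6 was left out.

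Among 12 other connexin genes 2 rose and none fell over the mean of the mutants, beside 14.0% and 9.91% of all genes. Gja3, Gja10, Gjb1, Gjb5, Gjb6, Gjc3, Gjd2, Gjd4 and Gje1 had wild-type means of 2.57 to 5.13, below every array median. A fall of these could hardly have been seen, so the count says little about them. Gjc1, at 10.82 in wild type, did not pass (adjusted p 0.983). Gja1, which encodes the widespread connexin Cx43, was at 13.01 to 13.14 in Fz4-/-, 12.95 to 13.12 in Lrp5-/- and 13.00 to 13.16 in Norrin-, against 12.41 to 12.69 in wild type. It rose by 0.46 ± 0.08 (adjusted p 0.000496), with all mutant arrays above wild type. Gjb2, a connexin of epithelia and leptomeninges, was at 7.01 to 8.25 in Fz4-/-, 7.03 to 7.69 in Lrp5-/- and 5.99 to 7.48 in Norrin-, against 5.73 to 6.82 in wild type, and rose by 1.00 ± 0.26 (adjusted p 0.00996). Without Lrp5-/- 1, Lrp5-/- 3 and wild type 4 only Gja1 passed (adjusted p 0.0651 for Gjb2). Of the Tec family, the relatives of Bmx, 3 genes were measured: Tec rose by 0.64 over the mean of the mutants (adjusted p 0.0111), and Btk (0.32, adjusted p 0.492) and Txk (0.14, adjusted p 0.547) did not pass. Txk, like Gkn1 and Gkn2, was at background in wild type (2.55 to 3.34), where a fall could not have been seen.

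Markers of other cells were read beside these results. The counts that follow stand beside 14.0% of all genes that rose and 9.91% that fell over the mean of the mutants. Arteries carry smooth muscle, and of 9 smooth muscle markers Cnn1 rose by 0.89 (adjusted p 0.0128) while Tagln and Myl9 fell by 0.54 (adjusted p 0.00578) and 0.57 (adjusted p 0.0168) over the mean of the mutants. The log2 of their summed signal was 14.406 to 14.733 in Fz4-/-, 14.014 to 14.745 in Lrp5-/- and 14.255 to 14.325 in Norrin-, against 14.513 to 14.97 in wild type. Of 10 pericyte markers 4 rose and 1 fell, and their summed signal was 15.065 to 15.227 in Fz4-/-, 15.127 to 15.307 in Lrp5-/- and 14.627 to 15.038 in Norrin-, against 14.902 to 15.131 in wild type. The macrophage sum was 13.219 to 13.756 in Fz4-/-, 12.909 to 13.499 in Lrp5-/- and 13.329 to 13.889 in Norrin-, against 12.186 to 13.486 in wild type, and 2 of 8 of its markers rose. The rod sum was 9.882 to 10.849 in Fz4-/-, 10.204 to 11.405 in Lrp5-/- and 9.201 to 10.771 in Norrin-, against 9.081 to 9.873 in wild type, and 1 of 5 rod markers rose. Of 5 Müller glia and astrocyte markers, Rlbp1 and Glul fell over the mean of the mutants. Gfap was higher in Norrin- than in Lrp5-/-, by 2.73 (adjusted p 0.00174). Its differences from wild type were 0.63 in Fz4-/- (adjusted p 0.245), 1.62 in Norrin- (adjusted p 0.00288) and -1.11 in Lrp5-/- (adjusted p 0.0454). Aqp4 went the other way, with differences of 0.48 in Fz4-/- (adjusted p 0.505), -0.86 in Norrin- (adjusted p 0.165) and 1.53 in Lrp5-/- (adjusted p 0.0309). For Norrin- minus Lrp5-/-, Aqp4 (-2.39, adjusted p 0.0103), Rlbp1 (-2.15, adjusted p 0.00747) and Glul (-0.44, adjusted p 0.036) were lower. Slc1a3 did not pass there (-0.67, adjusted p 0.232). The sum of the 5 markers was 13.355 to 13.819 in Fz4-/-, 13.839 to 14.209 in Lrp5-/- and 13.294 to 13.511 in Norrin-, against 13.686 to 14.103 in wild type. The sum of 3 red cell markers, of which Hbb-b2 and Alas2 fell, was 8.447 to 9.323 in Fz4-/-, 9.913 to 10.171 in Lrp5-/- and 9.879 to 10.452 in Norrin-, against 10.911 to 11.471 in wild type. The part of these markers in the levels of Gja4, Gja5, Gkn3 and Bmx was not tested.

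Endothelial genes were bright in every group, as were the pericyte and smooth muscle markers above, so the purity of the pools is not shown. The summed signal of 11 pan-endothelial genes was 15.47 to 15.534 in Fz4-/-, 15.304 to 15.451 in Lrp5-/- and 15.204 to 15.492 in Norrin-, against 15.132 to 15.396 in wild type, and Pecam1, the gene of the antigen used for purification, did not pass (0.07, adjusted p 0.743). Of these 11 genes 3 rose and 2 fell over the mean of the mutants, beside 14.0% and 9.91% of all genes.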

How the data were processed

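The values were the log2 signals of 45101 probe sets on 15 arrays that the authors deposited, which per the submitters' processing notes came from RMA (version not given in the sources used here). RMA corrects background, normalizes the arrays and summarizes probes, and it compresses differences of dim probe sets. The values were used as deposited. Of the probe sets, 34958 carried 1 symbol, 932 several and 9211 none, and each gene was represented by its brightest probe set with 1 symbol (18194 genes, no filter). limma 3.58.1 in R 4.3.3 (lmFit, contrasts.fit, eBayes) fitted 4 group means, with Benjamini-Hochberg adjustment over all genes of a contrast and a threshold of 0.05; p-values measure the spread between pools. The fit was tested on simulated data. The 4 genes and all gene lists were chosen with earlier results of these data known, and the 4 genes were given no test. Genes named were the 4, the targeted genes, the arterial list, up to 4 genes with the largest differences of each other list, the 3 nearest courses of each of the 4, and their neighbours. Promoters and gene order came from RefSeq tables of GRCm38.p6, which need not be the build of the array design. Hybridization batches are not given in the labels. Same-numbered arrays did not deviate together over all groups (correlations -0.238 to 0.381 over 18 pairs). Fz4-/- 1 to 3 with wild type 1 to 3 and Lrp5-/- 1 to 3 with wild type 4 to 6, which match in sex-linked genes, did (0.276 to 0.653 over 6 pairs, -0.57 to 0.254 over the 12 mismatched ones), and a fit with these pairs as a block was added after seeing the data. Alternatives were another quantile normalization, median centring, the mean of a gene's probe sets, other wild-type arrays, a replicate block, arrays left out, array weights, other eBayes settings, a filter on dim genes, only the groups compared and a 2-fold minimum.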

Additional observations from a re-analysis of the deposited data

Results flagged for a closer look

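Among 33 sets of 6 wild-type arrays examined for the 4 genes and the arterial list, 2 held an array far from the others. Nrp1 was at 12.15 in wild type 3, below the other wild-type arrays, which reached 12.55. Edn1 was at 12.04 in wild type 1, below the others, which reached 12.43. The gap to the nearest array took 0.666 of the whole range for Nrp1 and 0.75 for Edn1. Chance gives such a gap in about 1 in 20 groups, and neither array was set apart for Gja4, Gja5, Gkn3 or Bmx.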

How the results depend on the processing

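The differences of Gja4, Gja5, Gkn3 and Bmx moved by less than the replicate spread in 111 of 112 recomputed values and, with 1 array left out, in 239 of 240. The exceptions were both Gkn3 in Lrp5-/-, at -2.99 without the 3 arrays left out together and between -4.30 and -3.13 with 1 array left out. Counts of list genes moved by under 1.5 times in 54 of 70 alternatives and in 100 of 105 with 1 array left out. The other counts were as follows. With the replicate number as a replicate block over all groups, arterial genes called were 9 in Fz4-/-, 5 in Lrp5-/- and 11 over the mean of the mutants, and other connexins 1. With the matched array sets as a block (added after seeing the data) arterial genes called were 12 in Fz4-/- and 11 in Lrp5-/-, and the differences of Gja4, Gja5, Gkn3 and Bmx stayed within the replicate spread. With Fz4-/- set against wild type 1 to 3 only, 9 arterial genes passed. Counts of arterial genes in Lrp5-/- and of other connexins also moved without the 3 arrays left out together, a fit that kept only 1 Lrp5-/- array. With array weights, whose estimation stopped before convergence, 19 arterial genes passed in Lrp5-/-. Restricted to genes above the median gene, 1 other connexin passed. A 2-fold minimum left 7, 3, 5 and 6 arterial genes in Fz4-/-, Lrp5-/-, Norrin- and the mean of the mutants, and over that mean 1 flow gene, 3 venous genes and 1 other connexin, since most of the differences called are under 2-fold. With 1 array left out, arterial genes called in Lrp5-/- were 7 to 14 and venous genes 5 to 7. Apart from the 2-fold minimum and the smaller sets of arrays or genes, the cause was not tested. The small number of arrays limits precision, and signals near background, such as Gja5 in wild type and Lrp5-/-, understate differences.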
